A study of Mus musculus with 1078 samples.

Results

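Stra6, Adh1, Crabp2 and Rarb, 4 of the 21765 genes measured, were followed as a set of retinoid handling genes in tumor endothelial cells (TECs). The genes were chosen by their TP100K levels across the clusters and treatments of these same TECs, so those levels are given below as a description, with no test. TP100K is the value of a gene after each cell was scaled to a sum of 100000. GL261 is a mouse glioma cell line, implanted in the brain of syngeneic C57Bl/6 mice (either sex, 6 to 8 weeks old when experiments began). Mice labelled ctrl were compared with mice given losartan, a blocker of the angiotensin receptor, anti-PD1, an antibody against an immune checkpoint of T cells, or both. Single cells were sorted on CD45, CD3 or CD31 and sequenced by Smart-seq2, a full-length method, on 16 plates, 1 for each of 4 sorts and 4 treatments. The authors' label for these cells is endothelial, and TEC is the paper's term for endothelial cells of these tumors. The label does not tell tumor vessels from vessels of adjoining brain. TECs made up 18.6% of the 1078 cells, and all but 6 of them, which came from the CD45-negative plates, were on the CD31-positive plates. Animals are not named in the labels, so each treatment was 1 sample: no test between treatments can be made, and treatment and plate cannot be told apart.

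The CD31-positive plates held 79 TECs with anti-PD1, 57 with losartan, 43 in control and 16 with losartan+anti-PD1, in the authors' clusters 3, 7 and 12. Cluster 3 made up 3 of the control, 29 of the losartan, 78 of the anti-PD1 and 5 of the losartan+anti-PD1 TECs, so that a difference between treatments over all TECs is also a difference in cluster makeup. The endothelial label was checked with 12 endothelial markers such as Pecam1 and Cdh5, of which every TEC had at least 6 above 0 and the malignant cells of the same plates had a median of 1. Cluster 3 had the highest summed level of 10 barrier endothelial markers such as Mfsd2a and Slco1c1 (mean 1588 TP100K, against 333 in cluster 7 and 193.1 in cluster 12). Clusters 7 and 12 had more of 10 tumor endothelial markers such as Plvap and Angpt2 (mean 336 and 705 TP100K, against 66.7 in cluster 3). The median number of genes detected was 2714 in cluster 3, 4252 in cluster 7, 1660 in cluster 12 and 7042 in malignant cells.

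Retinol, the circulating form of vitamin A, is carried in blood and enters cells through the membrane receptor STRA6. Alcohol dehydrogenases such as ADH1 oxidize retinol to retinal, retinal dehydrogenases of the ALDH1A family oxidize retinal to retinoic acid, and CRABP2 delivers retinoic acid to nuclear receptors such as RARB. Retinoic acid is known to promote barrier properties of brain endothelium, and Stra6, Crabp2 and Rarb are themselves classical retinoic acid responsive genes.

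In the mouse genome (GRCm38.p6, RefSeq), Stra6 spans 58063793 to 58154004 of chromosome 9, Adh1 spans 138277585 to 138290698 of chromosome 3, Crabp2 spans 87948693 to 87953372 of chromosome 3 and Rarb spans 16430839 to 17082331 of chromosome 14. RefSeq windows of 300 bases around a transcription start (250 before, 50 after) were found for 3 of the 4 members, that is 1 window for Adh1, 1 for Rarb, 4 for Stra6, and were searched on both strands for retinoic acid receptor half-sites. The motif searched was 2 half-sites (a purine, then G, then G or T, then TCA) in the same orientation, 5, 2 or 1 bases apart. The sequences are shown because they set Rarb, nearly undetected in TECs, beside the 2 members that were detected. All are on the strand of the gene, with half-sites of such a pair in capitals:

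Rarb, chr14:16575506-16575535, minus strand: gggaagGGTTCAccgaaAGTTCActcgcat

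Stra6, chr9:58128838-58129087, plus strand: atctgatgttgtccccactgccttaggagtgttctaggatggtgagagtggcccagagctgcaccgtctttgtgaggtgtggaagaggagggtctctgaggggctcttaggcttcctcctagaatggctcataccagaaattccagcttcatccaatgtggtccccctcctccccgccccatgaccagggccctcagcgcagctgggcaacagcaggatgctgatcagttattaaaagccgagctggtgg

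Adh1, chr3:138277335-138277493, plus strand: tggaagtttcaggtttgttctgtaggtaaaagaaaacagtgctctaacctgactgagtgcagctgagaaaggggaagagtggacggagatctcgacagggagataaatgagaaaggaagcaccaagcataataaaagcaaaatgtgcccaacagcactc

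The Rarb window held 1 pair of half-sites 5 bases apart, from 53 to 37 bases before the start (chr14:16575513-16575529), inside the span of the gene and inside an exon of some of its GENCODE transcripts. An antisense gene, Gm48162, overlaps the window, and without strand its reads and those of Rarb cannot be told apart. Pairs 5 bases apart were found in 32 of 32851 windows (0.0974%), pairs 2 bases apart in 0.268% and pairs 1 base apart in 0.222%. Neither the Adh1 window nor the 4 Stra6 windows held any of these pairs, or the half-site AGGTCA on either strand, which 16.3% of all windows hold. A match of letters is a description of the window and not of a site in use. The Stra6 stretch ends at the base before the start, lies within the span of the gene and overlaps no GENCODE exon, and the Adh1 stretch ends where the first GENCODE exon of Adh1 begins.

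Stra6, the retinol receptor, was above 0 in 62 TECs of the CD31-positive plates (31.8%, exact 95% interval 25.3 to 38.8), at 0.195 to 188.97 TP100K. By treatment it was above 0 in 38 of 79 anti-PD1 TECs (48.1%, 36.7 to 59.6), 16 of 57 losartan TECs (28.1%, 16.97 to 41.5), 7 of 43 control TECs (16.3%, 6.81 to 30.7) and 1 of 16 losartan+anti-PD1 TECs (6.25%, 0.158 to 30.2). The anti-PD1 interval did not overlap the control interval or the losartan+anti-PD1 interval, and neighbours in the order overlapped. These intervals cover counting error over the cells of 1 plate, and Stra6 was chosen by these levels. Whether they overlap is no test between treatments. Mean levels had the same order, at 16.5 ± 33.2 (SD over 79 cells), 8.83 ± 28.8 (57 cells), 3.49 ± 19.5 (43 cells) and 1.003 ± 4.01 (16 cells) TP100K. A single cell of 127.7 TP100K gave 85.04% of the control sum.

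Within the clusters, Stra6 was above 0 in 51 cells of cluster 3 (44.3%, 35.1 to 53.9), 11 of 57 cells of cluster 7 (19.3%, 10.05 to 31.9) and 0 of 23 cells of cluster 12, which allows a share of up to 13.04%. The median level of the cells above 0 was 19.7 TP100K in cluster 3 and 2.29 TP100K in cluster 7. More genes were detected in cluster 7 cells than in cluster 3 cells. Within the losartan plate the shares of clusters 3 and 7 overlapped, at 10 of 29 and 6 of 24 cells, and the log2 ratio of means for cluster 3 against clusters 7 and 12 there was 2.50. In cluster 3, Stra6 was above 0 in 38 of 78 anti-PD1 cells (48.7%, 37.2 to 60.3), 10 of 29 losartan cells (34.5%, 17.9 to 54.3), 2 of 3 control cells and 1 of 5 losartan+anti-PD1 cells. Mean Stra6 in cluster 3 was 16.7 ± 33.3 TP100K with anti-PD1 (78 cells) and 15.5 ± 39.003 TP100K with losartan (29 cells), a log2 ratio of -0.10 for losartan against anti-PD1. That near equality rested on 3 losartan cells of 146.2, 143.4 and 76.9 TP100K, which had 1926, 1951 and 1926 genes detected. Among cells with 2000 to 6000 genes the same log2 ratio was -2.59.

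Adh1, which oxidizes retinol, was above 0 in 25 TECs of the CD31-positive plates (12.8%, 8.47 to 18.3), at 0.856 to 267.8 TP100K. It was above 0 in 22 of 79 anti-PD1 TECs (27.8%, 18.3 to 39.1), 2 of 57 losartan TECs (3.51%, 0.428 to 12.1), 1 of 43 control TECs (2.33%, 0.0589 to 12.3) and 0 of 16 losartan+anti-PD1 TECs, which allows a share of up to 18.8% (upper exact bound 20.6%). The anti-PD1 interval lay above those of control and losartan and overlapped that of losartan+anti-PD1, which had 16 cells. The intervals cover counting error over the cells of 1 plate, and Adh1 was chosen by these levels. Whether intervals overlap is therefore no test between treatments. Mean Adh1 was 25.6 ± 59.3 TP100K with anti-PD1, 1.47 ± 9.62 in control, 1.33 ± 9.44 with losartan, and listed at 0 with losartan+anti-PD1.

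All 25 Adh1-positive TECs belonged to cluster 3 (21.7% of its cells, 14.6 to 30.4). Adh1 was listed at 0 in the 57 cells of cluster 7, which allows a share of up to 5.26%, and in the 23 cells of cluster 12, which allows up to 13.04%. In cluster 3 it was above 0 in 22 of 78 anti-PD1 cells (28.2%, 18.6 to 39.5), 2 of 29 losartan cells (6.90%, 0.846 to 22.8), 1 of 3 control cells and 0 of 5 losartan+anti-PD1 cells. The anti-PD1 and losartan intervals overlapped. The 3 positive cells outside anti-PD1 had 71.2 and 4.82 TP100K with losartan and 63.1 TP100K in control. The median number of genes detected in cluster 3 was 2999 with anti-PD1 and 2151 with losartan, and the part of this difference in the Adh1 shares was not tested. The log2 ratio for losartan against anti-PD1 was -2.89 over all cells of the cluster and -2.77 among cells with 2000 to 6000 genes. That range does not match the groups on genes detected, and it keeps both losartan cells with Adh1, which had 2425 and 5458 genes.

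**Figure D1:**
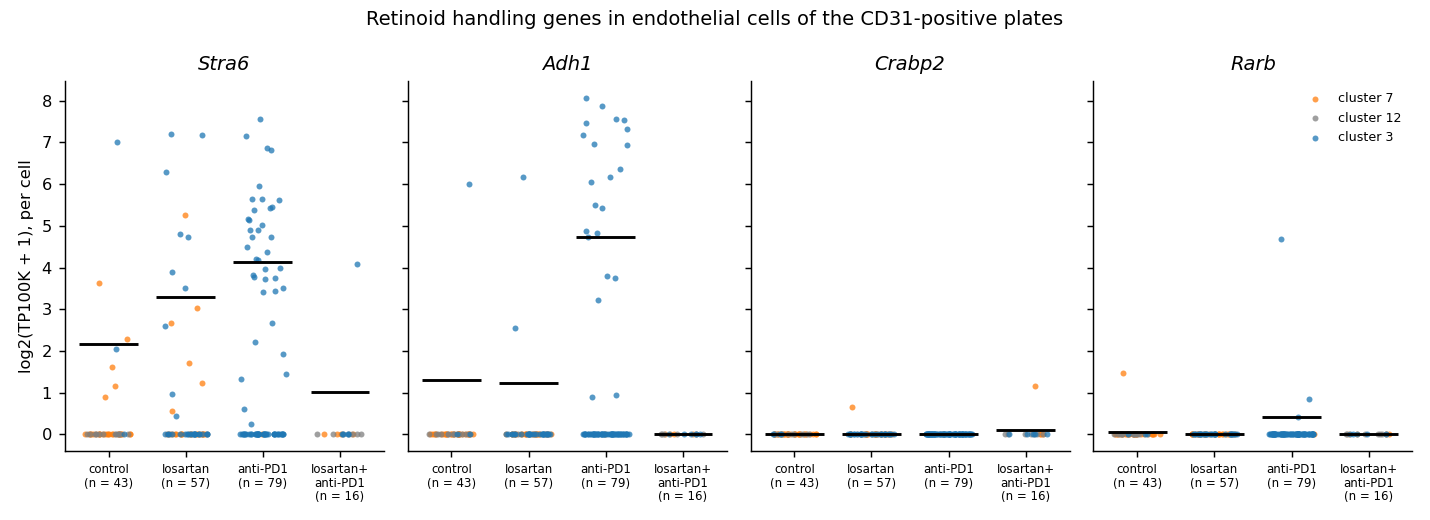
Level of each gene in each TEC of the CD31-positive plates, as log2(TP100K + 1), by treatment; points are cells coloured by the authors' cluster and the bar is the log2 of the mean plus 1. Stra6 is spread over clusters 3 and 7, the Adh1 cells above 0 are all in cluster 3 and 22 of 25 are from the anti-PD1 plate, and Crabp2 and Rarb are at 0 in nearly every cell.

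**Figure D2:**
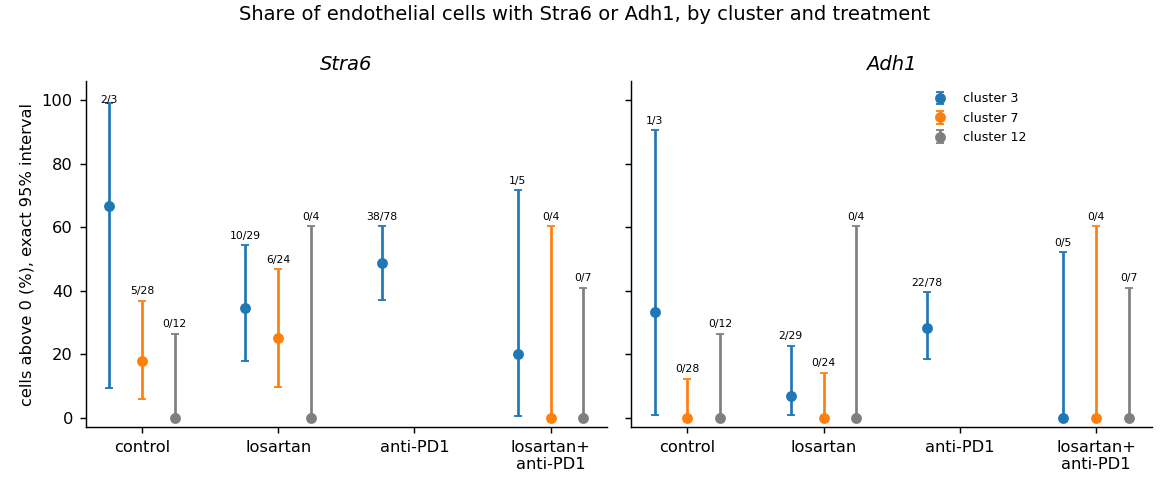
Share of TECs above 0 for Stra6 and Adh1 by treatment and cluster, with exact 95% intervals over cells and the counts printed above; groups of fewer than 3 cells are not drawn. Cluster 3 has the highest Stra6 share in control, losartan and losartan+anti-PD1, the groups in which cluster 7 is also drawn, with overlapping intervals, and the widest interval in both panels is that of cluster 3 in control, with 3 cells.

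Crabp2, the carrier of retinoic acid to the nucleus, was above 0 in 2 TECs of these plates (1.03%, 0.124 to 3.66), 1 losartan cell of 0.564 TP100K and 1 losartan+anti-PD1 cell of 1.23 TP100K, both in cluster 7. It was not detected in the 79 anti-PD1 TECs, which allows a share of up to 3.797%, or in the 43 control TECs, which allows up to 6.98%. Rarb, the receptor, was above 0 in 4 of the same TECs (2.05%, 0.562 to 5.17). A single anti-PD1 cell held 24.7 TP100K, or 89.5% of the sum over TECs, and the other 3 cells had 1.78 (control), 0.786 and 0.329 TP100K (anti-PD1). Levels of these 2 genes were therefore too sparse to be compared between treatments at this depth.

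The direction of each treatment comparison was read against every gene that 25% or more of one group's cells had above 0. Only Adh1 and Stra6 passed this filter in any comparison, and Crabp2 and Rarb in none. Ratios are log2 of the means plus 1 TP100K. For anti-PD1 against control, Stra6 had a log2 ratio of 1.96 and Adh1 of 3.43, where 10.5% of 6288 genes were at least 2-fold higher and 7.4% at least 2-fold lower. For losartan+anti-PD1 against anti-PD1, the Stra6 ratio was -3.13 and Adh1 was listed at 0 in the combination, where 14.8% of 6550 genes were at least 2-fold lower and 11.2% higher. For losartan against control, Stra6 had a ratio of 1.13 and Adh1, which did not pass, of -0.08, where 9.37% of 6315 genes were higher and 6.35% lower. The losartan ratio of Stra6 turned to -0.78 among cells with 2000 to 6000 genes, a range that leaves out the 3 high losartan cells, and the share above 0 was then 23.3% in both groups. For cluster 3 against clusters 7 and 12, Stra6 had a ratio of 3.19, where 9.1% of 6396 genes were higher and 6.47% lower. For losartan against anti-PD1 within cluster 3, 9.26% of 4871 genes were at least 2-fold lower, Adh1 among them, and 6.94% higher. The set was proposed from these contrasts, so the members' place among the called genes is no evidence of its own. The anti-PD1 cells enter both of the first 2 comparisons, and the control cells enter 2 as well.

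A second scaling, by the 75th percentile of each cell's values above 0, moved the median over all tested genes from 0.07 to -0.33 for anti-PD1 against control and from 0.05 to -0.43 for cluster 3 against clusters 7 and 12. With it, the share of called genes that were higher went from 58.8% to 18.5% and from 58.4% to 13.8%. Relative to that median, the anti-PD1 ratio was 3.54 for Adh1 and 1.997 for Stra6, against 3.36 and 1.89 under the main scaling, and the cluster 3 ratio of Stra6 was 3.16, against 3.15. The losartan ratio of Stra6 against control was 0.33 above the median, against 1.08.

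Having Adh1 and having Stra6 were nearly unrelated within cluster 3. Of the cells of that cluster, 14 had both, 11 had Adh1 without Stra6, 37 had Stra6 without Adh1 and 53 had neither. Among the 78 anti-PD1 cells of the cluster, Stra6 was above 0 in 12 of the 22 cells with Adh1 (54.5%) and in 26 of the 56 cells without it (46.4%). The correlation of ln(TP100K + 1) across these 78 cells was r = -0.00449. Rarb shared 2 cells with Stra6 and none with Adh1. No TEC had more than 2 of the 4 genes above 0, and 16 TECs had 2. Cells of 1 plate share its library preparation, so these values describe the plate and are not replicates.

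Adh1 occurred together with venous genes. In cluster 3, Ackr1 (listed under its older symbol Darc), an atypical chemokine receptor of venules, was above 0 in 16 of 25 cells with Adh1 and 3 of 90 cells without (3.33%). Nr2f2, the transcription factor of venous identity, was above 0 in 13 of 25 cells with Adh1 and 7 of 90 cells without (7.78%). Slc38a5, an amino acid transporter of venous brain endothelium, was above 0 in 16 of 25 and 22 of 90. The mean ln level of 6 venous markers correlated with Adh1 at r = 0.642 across the cells of cluster 3, and at r = 0.649 across the 78 anti-PD1 cells. The 7 arterial markers gave r = -0.126 and -0.0615. Hey1, an arterial Notch target, was above 0 in 5 of 25 cells with Adh1 and 35 of 90 without.

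Both losartan cells and the single control cell with Adh1 also had Ackr1. Stra6 did not follow the same genes. Across the 78 anti-PD1 cells it correlated with the venous markers at r = 0.151 and with Ackr1 at r = 0.00414, and Slc38a5 was the exception, at r = 0.307. Stra6 correlated with the number of genes detected at r = 0.396 in those cells, and Adh1 at r = 0.134. Venous markers as such were not limited to cluster 3. Their summed level had a mean of 226.6 TP100K in cluster 7, where Adh1 was listed at 0 throughout, 133.8 TP100K in cluster 3 and 5.26 TP100K in cluster 12.

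**Figure D3:**
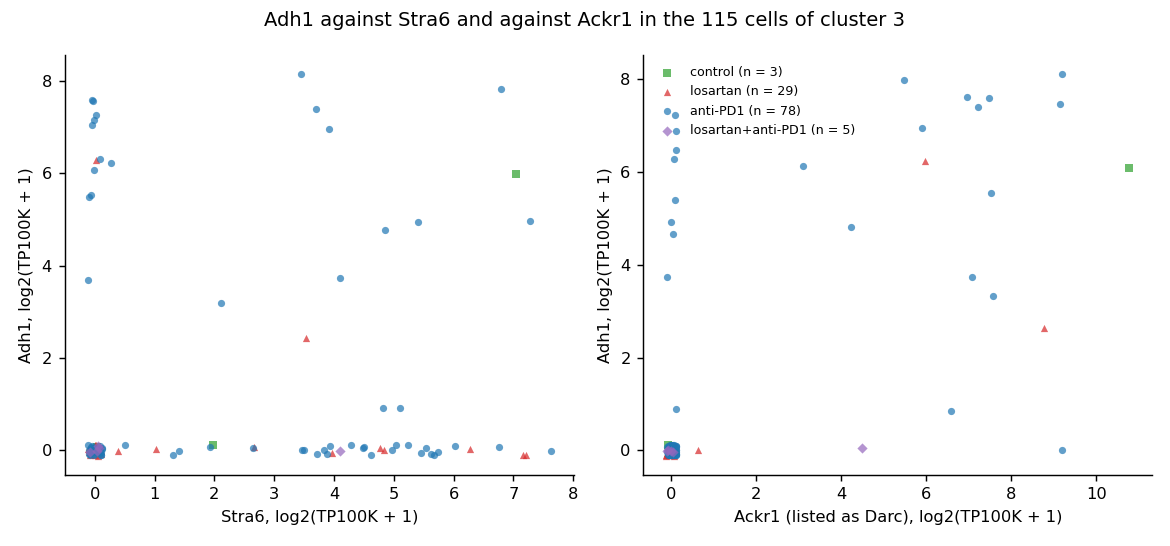
Adh1 against Stra6 (left) and against Ackr1 (right) in the cells of cluster 3, as log2(TP100K + 1) with small random offsets so that cells at 0 can be seen; symbols give the treatment. Most cells with Stra6 lie at 0 for Adh1, whereas 16 of the 25 cells with Adh1 have Ackr1 and only 3 cells have Ackr1 without Adh1.

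Across all TECs of the CD31-positive plates, the 3 genes most like Adh1 among 10811 genes above 0 in at least 10 cells were Tcea3, a transcription elongation factor (r = 0.594), Ccl19, a chemokine (r = 0.499), and Prkag2, a subunit of AMP-activated kinase (r = 0.444). Inside cluster 3, which holds all 25 TECs with Adh1, these values were r = 0.659, 0.648 and 0.502. The 3 genes were picked over a set that includes these cells, so the cluster 3 values are no separate check. Ccl19 was above 0 in 18 of the 25 cells with Adh1 and 20.6% of the TECs without it. The 3 genes most like Stra6 were Tfrc, the transferrin receptor (r = 0.409), Spock2, a proteoglycan and barrier marker (r = 0.408), and Tnfrsf19, a receptor of the tumor necrosis factor family (r = 0.387). Inside cluster 3 these values were 0.328, 0.233 and 0.253. Tfrc had a mean of 16.7 TP100K in cluster 3 and 1.36 TP100K in clusters 7 and 12.

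Markers of cells that adjoin the endothelium were at 0 in most TECs, with higher sums in single cells. Of 8 mural markers, Pdgfrb, Kcnj8, Des, Acta2 and Myh11 were at 0 in every cell of cluster 3, and the summed level ranged from 0 to 81.9 TP100K with 98 cells at 0. In clusters 7 and 12 it ranged from 0 to 38.005 TP100K. Of 5 fibroblast markers, Col1a1, Col1a2 and Dcn were at 0 throughout cluster 3, and the summed level did not exceed 9.58 TP100K in any TEC. In the 25 TECs with Adh1, 7 of the 8 mural markers and all 5 fibroblast markers were at 0. The exception was Abcc9, a channel subunit, above 0 in 5 of these 25 cells and in 8 of the 90 other cells of cluster 3 (8.89%), and its part in the Adh1 pattern was not tested. The summed level of 6 astrocyte markers was 0 in 72 of the 78 anti-PD1 cells of cluster 3 and reached 149.4 TP100K. Among the 29 losartan cells of that cluster it was 0 in 28 and reached 0.317 TP100K. In clusters 7 and 12 the astrocyte sum reached 22.5 TP100K. The part of astrocyte RNA in the Adh1 and Stra6 patterns was not tested. The leukocyte gene Ptprc was at 0 in every cell of cluster 3. Ttr, the retinol carrier partner that choroid plexus makes, was at 0 in every TEC of these plates.

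Outside the endothelium, Adh1 and Stra6 were nearly absent. Adh1 was above 0 in 4 of 877 other cells, at no more than 0.857 TP100K, and Stra6 in 3 of 877, at no more than 1.36 TP100K. On the CD31-positive plates, each was above 0 in 1 malignant cell (0.855%, 0.0216 to 4.67), although more genes were detected in malignant cells. Adh1 was not detected in any of 579 immune cells. On the CD45-negative plates, whose values are expected counts not divided by transcript length, 6 cells were labelled endothelial. Of the 5 from anti-PD1, all in cluster 3, 3 had Adh1 (71.6, 20.7 and 2.35 TP100K) and 2 had Stra6 (64.3 and 4.32 TP100K), with 1 cell holding both. The single losartan cell, in cluster 7, had neither. These 6 cells were processed on other plates. Only 1 of them lay outside cluster 3, so they cannot show whether Adh1 is limited to that cluster.

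Crabp2 had the reverse distribution. It was above 0 in 26 malignant cells of the CD31-positive plates (22.2%, 15.1 to 30.8), with a mean of 2.24 ± 7.06 TP100K and a highest cell of 50.3 TP100K. The median number of genes detected on these plates was 7042 in malignant cells and 3126 in TECs. Its part in the higher Crabp2 share of malignant cells was not tested. By treatment the malignant counts were 7 of 33 control, 6 of 25 losartan, 1 of 8 anti-PD1 and 12 of 51 losartan+anti-PD1 cells, with overlapping intervals. The 8 anti-PD1 cells had a mean sum of 6 astrocyte markers of 682 TP100K, against 12.8 to 24.5 TP100K in the other treatments. Whether they are the same kind of cell as the rest was not tested, and the 1 malignant cell with Stra6 on these plates was among them. On the CD45-negative plates, 19 malignant cells had Crabp2 (12.8%, 7.91 to 19.3). On the CD3-positive plates, 15 of 327 T cells were above 0 (4.59%, 2.59 to 7.45), up to 745 TP100K, and all 15 belonged to the authors' cluster 0. No B cell, NK cell, microglia or myeloid cell had it. In T cells of cluster 0 on those plates, counts were 9 of 72 with losartan+anti-PD1, 4 of 72 with losartan, 2 of 59 in control and 0 of 32 with anti-PD1, which allows up to 9.38%. Rarb was above 0 in 7 of 877 cells outside the endothelium, 3 of them malignant, 2 oligodendrocytes and 2 myeloid, with a highest value of 9.33 TP100K.

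**Figure D4:**
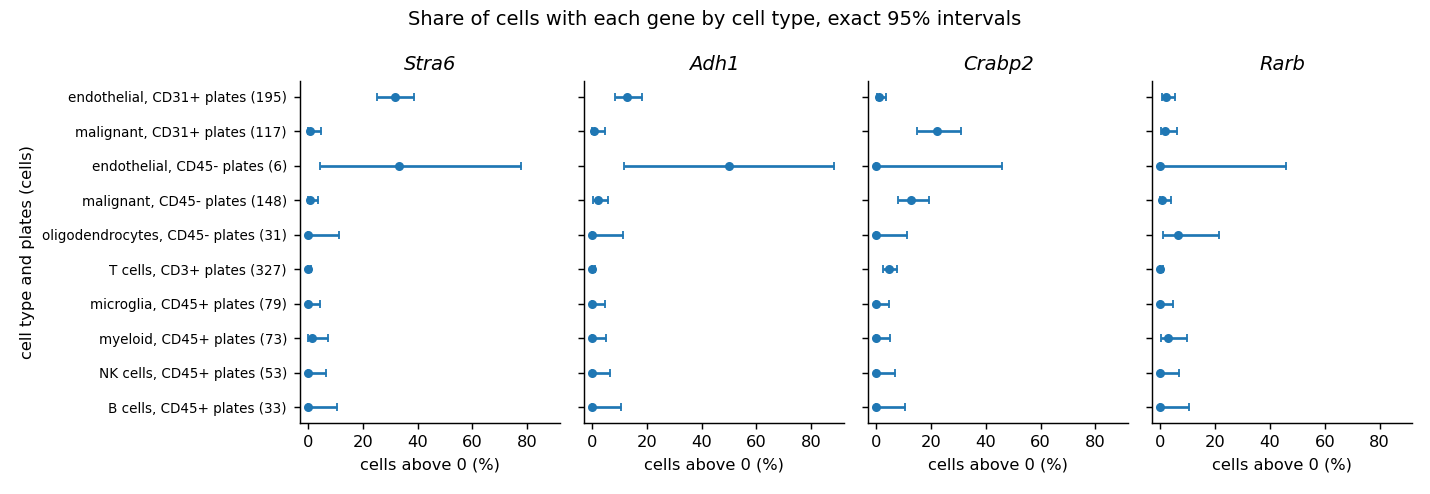
Share of cells above 0 for each of the 4 genes by cell type and sort, with exact 95% intervals over cells and the number of cells in brackets. Stra6 and Adh1 stand above 0 in TECs of both sorts, and Crabp2 in malignant cells and T cells. The highest Rarb point, that of oligodendrocytes on the CD45-negative plates, is 2 of 31 cells (6.45%, 0.791 to 21.4). Its interval overlaps that of TECs on the CD31-positive plates (0.562 to 5.17), so it gives no ranking of cell types.

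The wider pathway was read from a list of 65 retinoid genes, of which 63 were measured. Of these 63, 16 were at 0 in every TEC and 25 were above 0 in at least 10% of the TECs of some treatment. Enzymes that make retinoic acid from retinal were scarce: none of 5 reached 10%, and Aldh1a1, Aldh1a2 and Aldh1a3 were each above 0 in 1 TEC (0.513%). Malignant cells of the same plates had Aldh1a1 in 20 cells (17.1%), Aldh1a2 in 13 (11.1%) and Aldh1a3 in 7 (5.98%). More genes were detected in malignant cells than in TECs (median 7042 against 3126). The part of this in the malignant shares here, and in those of Fabp5 and Adh5 below, was not tested. Lrat, which esterifies retinol for storage, was above 0 in 2 TECs.

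Among carriers, Rbp7, a retinol binding protein, was above 0 in 8 TECs, 5 of them among the 23 cells of cluster 12, at up to 582 TP100K. Fabp5, which carries retinoic acid to PPARD, was above 0 in 11 TECs (5.64%) and in 94.02% of malignant cells.

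Dhrs3, which reduces retinal back to retinol, was above 0 in 80 TECs (41.03%, 34.05 to 48.3) and 10 malignant cells (8.55%). Its mean was 45.96 TP100K in cluster 12, 12.9 in cluster 3 and 4.98 in cluster 7. Cyp26b1, which breaks down retinoic acid, was above 0 in 5 of the 16 losartan+anti-PD1 TECs (31.3%, 11.02 to 58.7), all 5 among its 7 cells of cluster 12. Cyp26b1 was not detected in the 12 control cells of that cluster (upper exact bound 26.5%) nor in any other TEC. Adh5, the ubiquitous class III dehydrogenase, was above 0 in 89 TECs (45.6%) and 94.9% of malignant cells. Adh5 had a losartan against anti-PD1 log2 ratio of 1.55 in cluster 3, opposite in sign to that of Adh1.

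Other receptors than Rarb were measured more often. Rara was above 0 in 69, Rarg in 60 and Ppard in 69 TECs, each at a mean under 2 TP100K, and Rxrg in none. Rara was above 0 in 25 of 43 control TECs (58.1%) and 19 of 79 anti-PD1 TECs (24.1%), and Ppard in 37 of 57 cells of cluster 7 and 0 of 23 cells of cluster 12. Of these TECs, 28 of control were in cluster 7 and 78 of anti-PD1 in cluster 3. The median number of genes detected was 4252 in cluster 7, 2714 in cluster 3 and 1660 in cluster 12. The part of cluster makeup and of genes detected in these shares was not tested. Of 17 retinoic acid responsive genes, 5 were at 0 in every TEC, Cyp26a1, Stra8, Rarres2 and Cdx1 among them. Tgm2, the transglutaminase of that list, was above 0 in 83.1% of TECs at a mean of 36.7 TP100K, with shares of 79.1% in control and 87.7% with losartan as the lowest and highest.

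Further list genes reached 10% in TECs of some treatment. Among the dehydrogenases, Rdh1 was above 0 in 78.3% of cluster 3 and 96.5% of cluster 7, Rdh9 in 13.04% and 15.8%, Rdh13 in 6.96% and 21.1%, and Dhrs4 in 13.04% and 17.5%. The Rdh genes are a family of similar sequences whose reads may be shared, so their levels are uncertain. Dgat1, which can esterify retinol, was above 0 in 13.04% of cluster 3 and 31.6% of cluster 7. The retinoid X receptors, partners of the RARs, stood at 13.04% and 15.8% for Rxra and 11.3% and 33.3% for Rxrb. Among the co-regulators, the co-repressor Ncor1 was above 0 in 66.1% and 80.7% of clusters 3 and 7, and the co-activators were Ncoa3 (57.4% and 50.9%), Ncoa1 (29.6% and 31.6%) and Ncoa2 (24.3% and 24.6%). Rarres1 and Meis2, both retinoic acid responsive, were above 0 in 12.3% and 21.1% of cluster 7 and in 0.870% and 2.61% of cluster 3. The median number of genes detected was 4252 in cluster 7 and 2714 in cluster 3, and its part in the shares of this paragraph was not tested.

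Counted over the list, 15 genes passed the filter for anti-PD1 against control, of which Stra6 and Adh1 were at least 2-fold higher and none lower, with a median log2 ratio of 0.20 against 0.07 over all genes tested. Over all genes tested the called shares were the 10.5% and 7.4% given above, and both called genes of the list belong to the set chosen from these contrasts, so nothing is read from the count. The same holds for Stra6 and Adh1 in the counts that follow, which stand beside the shares given above for each comparison. For losartan+anti-PD1 against anti-PD1, 19 passed, 4 higher (Rbp7, Dhrs3, Cyp26b1 and Ncoa3) and 3 lower (Stra6 and Adh1 among them), with a median of -0.32 against -0.10. Cluster 12 held 7 of the 16 losartan+anti-PD1 TECs, whereas 78 of the 79 anti-PD1 TECs were in cluster 3. The shares of Rbp7 and Cyp26b1 and the mean of Dhrs3 were highest in cluster 12. The part of cluster makeup in these calls was not tested. For losartan against control, 13 passed, 2 higher (Stra6 and Adh5) and 1 lower (Dhrs3), with a median of -0.16 against 0.05. Cluster 12 held 12 of the 43 control and 4 of the 57 losartan TECs, and its part in the Dhrs3 call was not tested. For cluster 3 against clusters 7 and 12, 14 passed, 2 higher (Stra6 and Adh5) and none lower, with a median of 0.00016 against 0.05. For losartan against anti-PD1 in cluster 3, 15 passed, 1 higher (Adh5) and 3 lower (Adh1 and Dhrs3 among them), with a median of -0.10 against -0.02.

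**Figure D5:**
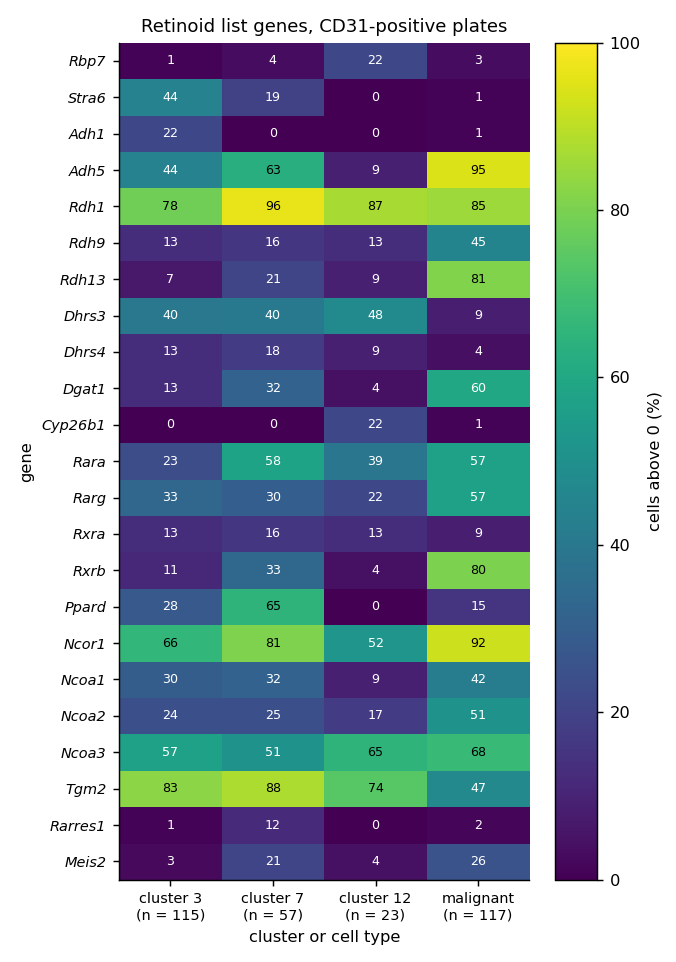
Percentage of cells above 0 for genes of the retinoid list that reached 10% in TECs of some treatment, by TEC cluster and in malignant cells of the CD31-positive plates; the number in each cell of the map is the percentage. Adh1 and Stra6 are highest in cluster 3, Rbp7 and Cyp26b1 in cluster 12, Ppard and Rara in cluster 7, and Adh5, Rdh13 and Rxrb in malignant cells.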

How the data were processed

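Cells were grouped by the treatment, cell type and cluster given by the authors. Of 201 endothelial cells, 195 were on CD31-positive plates (115 in cluster 3, 57 in cluster 7, 23 in cluster 12), beside 117 malignant cells; 148 malignant cells were on CD45-negative plates. Per the paper's methods, reads were aligned to mouse transcripts (mm10) by Bowtie and quantified by RSEM (1.2.8 in the submitters' processing notes, which also list TopHat; the paper's methods give a different RSEM version, and the disagreement could not be settled here). Values deposited for plates sorted on CD31 or CD3 are TPM. Values deposited for plates sorted on CD45 are expected counts (78.7% of values above 0 exactly whole, totals 3598 to 1896085 per cell), so levels were compared within a sort. TPM keeps no depth, and genes detected per cell stand in for it. T cell and endothelial libraries were prepared with an adapted protocol.

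The authors kept cells with 1000 to 8000 genes detected. Each cell was scaled to 100000 (TP100K). Shares above 0 carry exact Clopper-Pearson 95% intervals; 0 of n allows up to 3 of n. These cover counting error over cells only. With 1 sample per treatment no test between treatments was possible. The authors gated for singlets at sorting, and no doublet caller was run. Named genes were the members, list genes above 0 in at least 10% of TECs of any treatment, and the 3 most correlated genes for the 2 members in more than 10 cells; some list genes are not reported here. Other genes, markers included, were named after their values were seen. The members and lists were chosen with earlier results of these data known. The ratio code was run on copies of real TECs with known fold changes put into better detected genes. That checks the arithmetic only and does not cover genes as sparse as Crabp2 and Rarb. Alternatives were other pseudocounts, filters, a 75th percentile scaling, limits on genes detected, leaving out the highest cell and adding the 6 TECs of other plates. Python 3.11.15, pandas 2.3.3 and SciPy 1.17.1 were used.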

Additional observations from a re-analysis of the deposited data

How the results depend on the processing

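Shares above 0 kept within the spread of cells for 62 of 64 alternatives; Crabp2 in losartan TECs went from 1.75% to 0 above a limit of 1 TP100K and among cells with 2000 to 6000 genes, since its single cell had 0.564 TP100K and 6568 genes. Of 60 alternative log2 ratios of the 4 genes, 44 moved by less than 1.5-fold, 15 moved by more, and in 1 a ratio of at least 2-fold changed sign: Stra6 for losartan against control, from 1.13 to -0.78 among cells with 2000 to 6000 genes (0.15 under the 75th percentile scaling). Adh1 for anti-PD1 against control ranged from 1.63 with a pseudocount of 10 to 4.04 with 0.1, and Stra6 from 0.97 to 2.21. Stra6 for losartan+anti-PD1 against anti-PD1 ranged from -3.91 to -1.27, for cluster 3 against clusters 7 and 12 from 1.28 to 4.03, and in cluster 3 (losartan against anti-PD1) from -2.59 to 0.09, while Adh1 in the last ranged from -3.26 to -1.51. Adh1 for losartan against control was -1.18 without the highest cell. Leaving out the highest cell of a comparison also changed the sign of 3 ratios under 2-fold: Rarb for anti-PD1 against control (0.35 to -0.04, range up to 1.595), Rarb for cluster 3 against clusters 7 and 12 (0.26 to -0.02, range up to 1.41) and Stra6 for losartan against anti-PD1 in cluster 3 (-0.10 to 0.09). No paired analysis was possible because each sort and treatment is 1 plate and no test was run.

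The number of genes past a 2-fold ratio moved by over 1.5 times in 32 of 40 recounts, given here as a percentage of the genes tested, higher then lower where both moved. The main settings gave 10.5 and 7.4 for anti-PD1 against control, 11.2 and 14.8 for the combination against anti-PD1, 9.37 and 6.35 for losartan against control, 9.10 and 6.47 for cluster 3 against clusters 7 and 12, and 6.94 and 9.26 for losartan against anti-PD1 in cluster 3. A 10% filter tested 9103 to 10012 genes and gave 10.9 higher for anti-PD1, 16.4 lower for the combination, 10.4 and 6.12 for losartan, 8.81 higher for cluster 3, and 8.72 and 11.2 within cluster 3. No filter tested 13772 to 15102 genes and gave, in the same order, 8.65 and 5.44, 8.10 and 13.4, 8.32 and 5.08, 6.58 and 4.52, and 7.05 and 9.32; more genes were called because more were tested. A pseudocount of 0.1 gave 15.9 and 12.7 for anti-PD1, 22.5 lower for the combination, 14.2 and 11.6 for losartan, 11.2 lower for cluster 3 and 14.9 lower within cluster 3. The 75th percentile scaling gave 3.58 and 15.7 for anti-PD1, 5.53 lower for the combination, 2.47 higher for losartan, 2.80 and 17.5 for cluster 3, and 1.21 and 13.98 within cluster 3. Under it the higher share of calls went from 43.2% to 72.3% for the combination, from 59.6% to 24.9% for losartan and from 42.8% to 7.97% within cluster 3. The cause of the moves under the pseudocount and the scaling was not tested.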
